A study of Mus musculus with 4 samples.

Results

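The collagen genes of the mouse testis were described in whole-tissue RNA from mice given busulfan (BUS) and from mice given BUS followed by ursolic acid (ULA). A gene was counted as a collagen when its symbol was Col, a type number, the letter a and a chain number, and 44 of the 57010 identifiers in the count table met this rule. They comprised 11 fibrillar collagens, 9 basement membrane collagens and 24 other collagens. Of the 23023 genes with enough counts to be tested, 42 were collagens, and Col9a2 and Col10a1 were left out for low counts.

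BUS is an alkylating agent that kills dividing germ cells, and ULA is a plant triterpenoid. The animals were male ICR mice, 8 weeks old when purchased, before the treatments. The BUS group received 1 intraperitoneal injection of BUS at 30 mg/kg and later daily gavage with the oil and DMSO vehicle, and the ULA group received the same injection and, from 2 weeks afterwards, ULA at 50 mg/kg by daily gavage for 4 weeks. Each group had 2 libraries, so every animal in the comparison carried BUS, and libraries of mice without BUS were not analysed here. The methods mention biological replicates and a technical replicate. Which animals gave the libraries is not in the labels, so the p-values below measure the spread between these libraries.

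Collagens are proteins of 3 chains wound into a triple helix. Fibrillar collagens such as types I, III and V assemble into the fibrils of connective tissue, whereas type IV collagen forms the sheet-like network of basement membranes, to which types XV and XVIII attach. In the testis a basement membrane lies under the Sertoli cells and germ cells of each tubule, a layer of peritubular myoid cells surrounds it, and fibroblasts, vessels, macrophages and Leydig cells fill the interstitium.

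The 4 libraries held 15078828 to 18216380 counts, and 3 counts in a library corresponded to 0.148 to 0.238 CPM (counts relative to the library's total, scaled by TMM). The tissue label was checked against marker lists. Sertoli, Leydig, spermatocyte and spermatid markers were present in all libraries, and 7 of 12 epididymis markers stayed under 10 counts everywhere, with Adam7 at 0. The 5 other epididymis markers were measured, and Lcn2, which is also made by other cells, took most of the list's sum of 1794 CPM in BUS 1, 742 in BUS 2, 339 in ULA 1 and 224 in ULA 2. Lcn2 fell, at a log2 fold change of -2.81, and Rnase10 and Cst8 rose by 1.84 and 1.32, the latter from 35.1 and 41.7 CPM in BUS to 76.3 and 116 CPM in ULA. Protein-coding genes took 96.9% and 96.3% of counts in the BUS libraries but 87.4% and 76.9% in the ULA libraries, so the library ULA 2 stood apart in this respect.

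Promoter sequences are shown for collagens on which the results turn, so that the genes can be seen beside their values. The RefSeq table for GRCm38.p6 held a window for 35 of the 44 collagens, in 38 windows. The bases printed lie before a RefSeq start and outside annotated exons, 5′ to 3′ on the strand of the gene. The Col25a1 window precedes the RefSeq start at 130180845 and lies inside the GENCODE gene, which starts at 130131501. Capitals mark the CCAAT box (CCAAT), the TATA box (TATAAA) and the GC box (GGGCGG), searched on both strands, so that their complements are also in capitals. No match overlaps another in the windows printed.
Col3a1, chr1:45311288-45311537, plus strand: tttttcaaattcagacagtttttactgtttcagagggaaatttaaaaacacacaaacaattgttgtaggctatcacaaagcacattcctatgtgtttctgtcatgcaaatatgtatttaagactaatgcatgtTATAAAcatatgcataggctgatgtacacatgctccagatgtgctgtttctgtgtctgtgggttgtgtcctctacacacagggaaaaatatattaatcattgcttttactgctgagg
Col11a1, chr3:114030290-114030539, plus strand: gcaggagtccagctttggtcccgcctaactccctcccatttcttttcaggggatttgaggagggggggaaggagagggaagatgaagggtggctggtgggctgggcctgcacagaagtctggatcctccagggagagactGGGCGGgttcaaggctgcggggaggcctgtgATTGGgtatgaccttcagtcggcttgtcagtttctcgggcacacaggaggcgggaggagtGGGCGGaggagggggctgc
Col25a1, chr3:130180595-130180844, plus strand: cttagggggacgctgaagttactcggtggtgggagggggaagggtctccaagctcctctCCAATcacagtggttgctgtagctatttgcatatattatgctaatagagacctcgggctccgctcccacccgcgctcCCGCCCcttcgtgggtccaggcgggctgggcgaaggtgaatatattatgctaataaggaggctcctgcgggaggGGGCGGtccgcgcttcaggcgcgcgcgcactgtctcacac
Col28a1, chr6:8192618-8192867, minus strand: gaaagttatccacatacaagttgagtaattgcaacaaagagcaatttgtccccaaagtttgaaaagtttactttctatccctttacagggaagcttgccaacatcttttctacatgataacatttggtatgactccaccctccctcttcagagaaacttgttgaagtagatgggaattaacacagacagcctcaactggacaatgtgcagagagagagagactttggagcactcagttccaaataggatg

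The first pair of windows belongs to fibrillar collagens that fell with ULA, and the second pair to the collagens that rose. The Col3a1 window contained 35.2% G and C and 1 TATAAA, whereas the Col11a1 window contained 62.4% G and C, 1 CCAAT and 2 GGGCGG. The Col25a1 window, at 60.4% G and C, also held 1 CCAAT and 2 GGGCGG, and the Col28a1 window, at 40.4%, held none of the 3 motifs. None of the 3 motifs was present in both windows of the first pair and absent from both of the second. Over 32851 promoter windows of this length, 33.8% held CCAAT, 12.4% held TATAAA and 32.7% held GGGCGG. Among the 38 collagen windows, 13 held CCAAT, 5 held TATAAA and 22 held GGGCGG.

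The 6 type IV genes lie in head-to-head pairs, and the bases between the partners are shown because the partners did not always give the same result. Col4a1 and Col4a2 overlap by 22 bases at their starts on chromosome 8. Col4a4 and Col4a3 are separated by 71 bases on chromosome 1, and Col4a6 and Col4a5 by 1308 bases on the X chromosome.
Col4a4 to Col4a3, chr1:82586850-82586920, plus strand: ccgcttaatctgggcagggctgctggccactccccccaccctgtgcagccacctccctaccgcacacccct
Col4a6, chrX:141474077-141474326, minus strand: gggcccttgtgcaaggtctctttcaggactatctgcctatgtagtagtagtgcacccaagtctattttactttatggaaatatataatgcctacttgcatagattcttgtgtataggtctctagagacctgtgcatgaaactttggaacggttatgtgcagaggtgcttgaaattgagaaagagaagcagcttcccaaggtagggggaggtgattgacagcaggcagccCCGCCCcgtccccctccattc
Col4a5, chrX:141475169-141475384, plus strand: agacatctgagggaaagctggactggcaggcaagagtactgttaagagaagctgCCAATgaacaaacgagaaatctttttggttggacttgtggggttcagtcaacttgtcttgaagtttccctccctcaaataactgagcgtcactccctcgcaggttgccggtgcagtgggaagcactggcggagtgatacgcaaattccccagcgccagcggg

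The bases between Col4a4 and Col4a3 contained 69.0% G and C and none of the 3 motifs. The window before Col4a6 held 1 GGGCGG, read on the opposite strand, and the 216 bases before Col4a5 held 1 CCAAT. These matches describe the letters of the windows alone.

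Collagen transcripts were lower with ULA, most clearly among the main fibrillar chains, the type IV network chains and type VI collagen, while the fibril-associated collagens did not pass the test in either direction with TMM scaling. Of the 42 collagens tested, 16 fell and 2 rose by edgeR's quasi-likelihood test with Benjamini-Hochberg adjustment over all genes, at an adjusted p under 0.05. Over all genes tested, 15.3% fell and 11.8% rose, and over protein-coding genes 20.5% fell and 6.94% rose. Summed over all 44, collagens reached 1861 CPM in BUS 1, 1401 in BUS 2, 965 in ULA 1 and 929 in ULA 2, and the total was 1.72-fold higher in BUS. The collagens' median log2 fold change, ULA over BUS, was -0.65, beside 0.02 over all genes and -0.22 over protein-coding genes. Both ULA libraries lay below both BUS libraries for 28 of the 42 and above them for 6, whereas 37.2% of all genes tested had ULA below BUS without overlap and 37.9% had ULA above BUS. Since the libraries were made from whole testis, fewer cells of a collagen-making type and less collagen RNA per cell cannot be told apart. CPM are relative to the library's total, so a larger share of RNA from other cells cannot be told apart from these either.

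**Figure D1:**
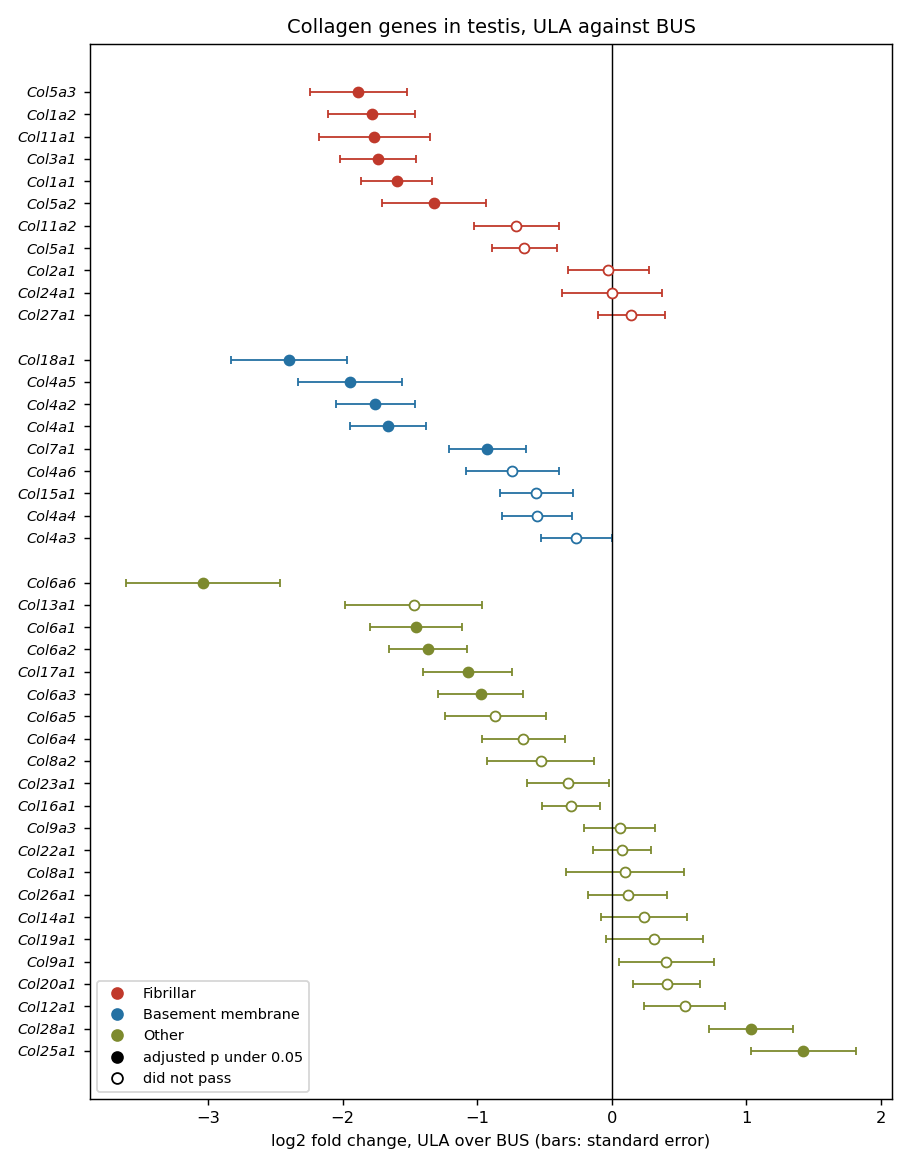
Log2 fold change, ULA over BUS, of the 42 collagens tested (x axis; bars are standard errors, 2 libraries per group), grouped on the y axis into fibrillar, basement membrane and other collagens. Filled points passed edgeR's test and open points did not; 6 fibrillar, 5 basement membrane and 5 other collagens lie filled to the left of 0, and Col28a1 and Col25a1 lie filled to the right.

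These counts were different when base composition and length were taken into account. The collagens tested had a median G and C content of 55.1% and a median exon length of 7727 bases, against 48.9% and 3205 bases over all genes tested. With a smooth offset per library for both properties, 7 collagens fell (Col1a2, Col3a1, Col11a1, Col4a1, Col4a5, Col18a1 and Col6a6) and 5 rose (Col20a1, Col25a1, Col26a1, Col27a1 and Col28a1), where 11.7% of all genes in that fit fell and 8.4% rose. The median log2 fold change of the collagens was then 0.018. Without the library ULA 2, which held the smallest share of protein-coding counts, the ULA group held ULA 1 alone. The median log2 fold change was -0.60 for the collagens in that fit, beside 0.004 over all genes. Fewer collagens passed than in the main fit, and so did fewer genes over all. Across all 18 alternatives, Col3a1, Col4a1, Col4a5, Col18a1 and Col6a6 passed each time in the same direction.

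**Figure D2:**
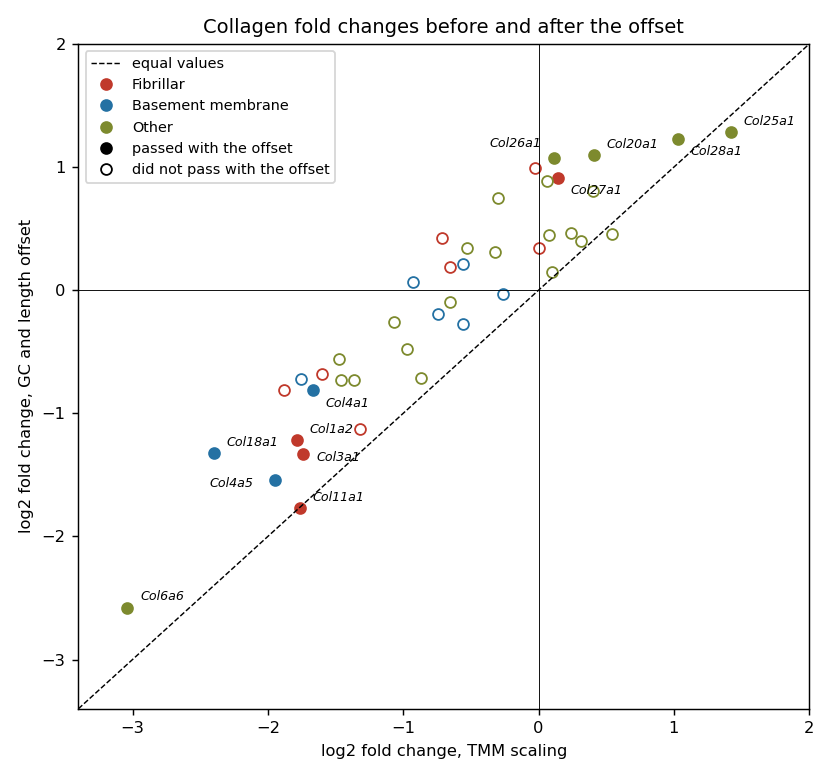
Log2 fold changes of the 42 collagens with TMM scaling (x axis) and with the offset for G and C content and length (y axis); the dashed line marks equal values, and filled points passed edgeR's test with the offset. Most points lie above the line, 7 filled points remain below 0 on the y axis and 5 filled points lie above 0.

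The summed level of the fibrillar collagens was 570 CPM in BUS 1, 409 in BUS 2, 224 in ULA 1 and 197 in ULA 2, which is 2.33-fold higher in BUS. Of the 11 members, 6 fell and none rose, with a median log2 fold change of -1.32. The members that fell included all 3 chains of types I and III.

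Col1a2 (ENSMUSG00000029661, chr6:4504814-4541544), which encodes the second chain of type I collagen, was the most abundant fibrillar collagen per length. Its level was 224 CPM in BUS 1, 132 in BUS 2, 63.4 in ULA 1 and 40.1 in ULA 2. Both ULA libraries were therefore lower than either BUS library, and BUS 1 was the highest. The log2 fold change was -1.78 ± 0.32 (SE, n = 2 per group), with an adjusted p of 0.0085 by edgeR's quasi-likelihood test with Benjamini-Hochberg adjustment, but Col1a2 missed the threshold without ULA 2 (adjusted p = 0.051 in the same test).

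Col1a1 (ENSMUSG00000001506, chr11:94936224-94953042) encodes the first chain, which outnumbers the other in the type I trimer. It was measured at 63.3 CPM in BUS 1, 46.8 in BUS 2, 19.9 in ULA 1 and 16.4 in ULA 2. The groups were again separate, and the 2 libraries of each group lay closer together than for Col1a2. It fell by 1.60 ± 0.26 on the log2 scale (edgeR quasi-likelihood test, Benjamini-Hochberg adjusted p = 0.0067), and it missed the threshold with the offset for base composition and length, where its log2 fold change was -0.68.

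Per kb of exon, the ratio of Col1a1 to Col1a2 was 0.534 in BUS 1, 0.670 in BUS 2, 0.594 in ULA 1 and 0.775 in ULA 2. The ratio overlapped between the groups, so no separation of the type I chains beyond the spread of the libraries was seen. It depends on the length used, and was 0.254 to 0.369 per kb of the longest transcript.

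Col3a1 (ENSMUSG00000026043, chr1:45311538-45349706) encodes the single chain of type III collagen, found with type I in distensible tissues. Its levels were 126 CPM in BUS 1, 84.7 in BUS 2, 36.4 in ULA 1 and 26.7 in ULA 2. Among the fibrillar collagens it had the lowest p and passed under every alternative. It fell by 1.74 ± 0.28 on the log2 scale (edgeR quasi-likelihood test, Benjamini-Hochberg adjusted p = 0.0063). Of the bases in its exons, 141 overlap Gm47302 on the same strand, so some reads could be shared. Together Col1a1, Col1a2 and Col3a1 gave 17.0% and 14.6% of the collagen CPM per kb in the BUS libraries, and 9.42% and 6.95% in the ULA libraries.

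The minor fibrillar chains, which join type I fibrils and limit their thickness, gave a mixed picture. Col5a3, Col11a1 and Col5a2 fell, at log2 fold changes of -1.88, -1.76 and -1.32, while Col5a1, the chain common to most type V trimers, had a log2 fold change of -0.65 and did not pass (edgeR adjusted p = 0.072 with Benjamini-Hochberg adjustment). The ratio of Col5a1 to Col5a2 per kb was 10.5 and 10.7 in the BUS libraries and 19.9 and 14.4 in the ULA libraries. These ratios did not overlap, but 2 libraries against 2 cannot give a two-sided exact permutation p below 0.33. Col5a2 and Col3a1 lie 24.6 kb apart, tail to tail, and both fell.

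The remaining fibrillar collagens did not pass. Col11a2, a partner of Col11a1 in type XI, had a log2 fold change of -0.71. Col2a1, the main collagen of cartilage, had -0.03, Col24a1 had 0.00 and Col27a1 had 0.15. Col2a1 was measured at 24.9 and 41.7 CPM in BUS and at 28.0 and 37.6 CPM in ULA, so its groups overlapped. Of 8 cartilage markers, 4 stayed under 10 counts in every library and Ucma was at 0 in all. Of the 4 tested, the matrix genes Chad and Acan fell, at log2 fold changes of -2.16 and -1.90, Hapln1 rose by 1.73 and Cnmd, at 1.13, did not pass. By DESeq2 and by limma-voom 2 cartilage markers fell and 0 rose, and with the offset 1 fell and 0 rose.

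**Figure D3:**
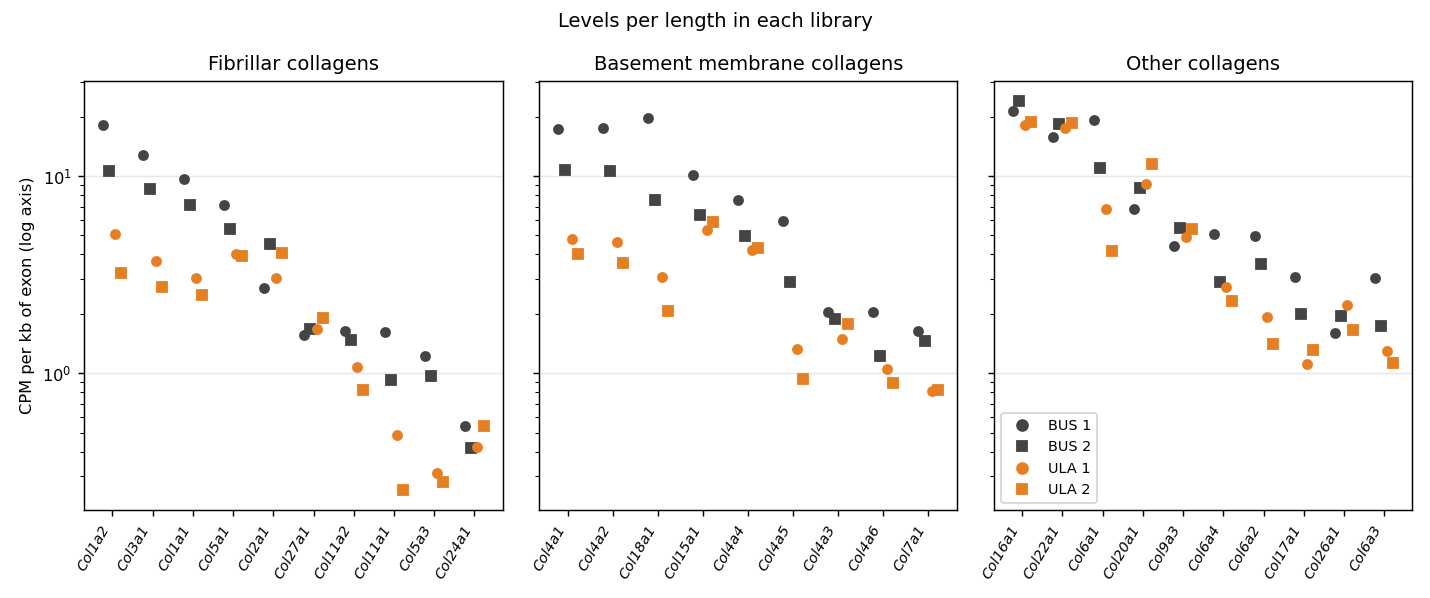
Level in each library, as CPM per kb of exon on a log axis, of up to 10 of the most abundant collagens of each group; grey symbols are BUS 1 and BUS 2 and orange symbols ULA 1 and ULA 2. Col1a2, Col3a1, Col4a1, Col4a2 and Col18a1 show orange points well below grey ones, while the 4 points of Col22a1 lie together between 15.8 and 18.5.

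The basement membrane collagens summed to 619 CPM in BUS 1, 359 in BUS 2, 207 in ULA 1 and 191 in ULA 2, which is 2.46-fold higher in BUS. Of the 9 members, 5 fell and none rose, the median log2 fold change was -0.92, and all 9 had both ULA libraries below both BUS libraries. The decrease was steepest in Col18a1 and in the chains Col4a1, Col4a2 and Col4a5.

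Col4a1 (ENSMUSG00000031502, chr8:11198423-11312826) and Col4a2 (ENSMUSG00000031503, chr8:11312805-11449287) encode the chains of the common type IV network, which joins both in 1 trimer. Col4a1 was measured at 129 CPM in BUS 1, 79.7 in BUS 2, 35.6 in ULA 1 and 30.1 in ULA 2. Col4a2 was measured at 115 CPM in BUS 1, 70.0 in BUS 2, 30.7 in ULA 1 and 24.0 in ULA 2. Both genes kept the same order of libraries, with BUS 1 highest and ULA 2 lowest. Col4a1 had a log2 fold change of -1.66 ± 0.28 and Col4a2 of -1.76 ± 0.29 (edgeR quasi-likelihood test, Benjamini-Hochberg adjusted p = 0.0070 and 0.0069).

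The ratio of Col4a1 to Col4a2 per kb was 0.992 in BUS 1, 1.01 in BUS 2, 1.03 in ULA 1 and 1.11 in ULA 2. The 2 chains thus stood near equal levels per length in every library while Col4a1 fell 3.17-fold and Col4a2 fell 3.38-fold. With the offset, Col4a1 passed at a log2 fold change of -0.81, and Col4a2, at -0.72, narrowly missed (edgeR adjusted p = 0.057 with Benjamini-Hochberg adjustment).

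Col4a5 (ENSMUSG00000031274, chrX:141475385-141689234) encodes a chain that joins either Col4a6 or the Col4a3 and Col4a4 chains. Its levels were 39.6 CPM in BUS 1, 19.4 in BUS 2, 8.95 in ULA 1 and 6.26 in ULA 2. It was lower in both ULA libraries and fell by 1.95 ± 0.39 on the log2 scale (edgeR quasi-likelihood test, Benjamini-Hochberg adjusted p = 0.011). Its head-to-head partner Col4a6 was measured at 16.3 CPM in BUS 1, 9.70 in BUS 2, 8.41 in ULA 1 and 7.13 in ULA 2, a log2 fold change of -0.74 ± 0.34 that did not pass (edgeR quasi-likelihood test, Benjamini-Hochberg adjusted p = 0.13).

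The ratio of Col4a5 to Col4a6 per kb was 2.88 in BUS 1, 2.37 in BUS 2, 1.26 in ULA 1 and 1.04 in ULA 2. The 2 genes were thus near equal per length in ULA and Col4a5 was the higher in BUS, without overlap of the groups. The exact permutation test of 2 libraries against 2 cannot go below a p of 0.33. The other pair, Col4a4 and Col4a3, whose chains form the network of the kidney filter and some other basement membranes, had log2 fold changes of -0.56 and -0.26 and did not pass. Col4a3 shares 563 exonic bases with C430014B12Rik on the opposite strand, and whether reads were assigned by strand is unknown.

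Col18a1 (ENSMUSG00000001435, chr10:77052178-77166548), whose end is released as endostatin, was measured at 137 CPM in BUS 1, 52.9 in BUS 2, 21.5 in ULA 1 and 14.5 in ULA 2. The BUS libraries differed from each other more than for the type IV chains, yet both stood above ULA. It fell by 2.40 ± 0.43 on the log2 scale (edgeR quasi-likelihood test, Benjamini-Hochberg adjusted p = 0.0083). Its relative Col15a1, which links basement membrane to the fibrils beneath it, had a log2 fold change of -0.56 and did not pass. Col7a1, the anchoring fibril collagen, fell by 0.92 on the log2 scale with the 2 ULA libraries near each other at 8.35 and 8.48 CPM, but with the offset its log2 fold change was 0.069.

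The other collagens differed among themselves, and their summed level was 671 CPM in BUS 1, 633 in BUS 2, 534 in ULA 1 and 541 in ULA 2, which is 1.21-fold higher in BUS. Of 24 members 22 were tested, 5 fell (22.7%) and 2 rose (9.09%), and the median log2 fold change was -0.12. These shares lay near those of protein-coding genes, of which 20.5% fell and 6.94% rose.

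Type VI collagen, which forms beaded filaments around cells, accounted for 4 of the 5 that fell. Col6a1 (ENSMUSG00000001119, chr10:76708792-76726168) was measured at 84.4 CPM in BUS 1, 47.9 in BUS 2, 29.9 in ULA 1 and 18.2 in ULA 2. The levels separated by group, and Col6a1 fell by 1.46 ± 0.34 on the log2 scale (edgeR quasi-likelihood test, Benjamini-Hochberg adjusted p = 0.018). Its trimer partners Col6a2 and Col6a3 fell, at log2 fold changes of -1.37 and -0.97. The call for Col6a3 was near the threshold (edgeR quasi-likelihood test, Benjamini-Hochberg adjusted p = 0.049) and was kept in 7 of the 18 alternatives.

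Col6a6 (ENSMUSG00000043719, chr9:105687809-105828160), one of 3 genes in a row whose chains can stand in for that of Col6a3, had the largest decrease of the 42 collagens. Its counts were 581 in BUS 1, 180 in BUS 2, 47 in ULA 1 and 24 in ULA 2. Both ULA libraries were low, and BUS 1 stood well above BUS 2. It fell by 3.04 ± 0.57 on the log2 scale (edgeR quasi-likelihood test, Benjamini-Hochberg adjusted p = 0.0093). Its neighbours Col6a5 and Col6a4, 27.9 kb and a further 28.8 kb along chromosome 9, had log2 fold changes of -0.87 and -0.66 and did not pass. Col6a6 and Col6a5 did not follow each other across libraries, since Col6a5 had 210 counts in BUS 1, 466 in BUS 2, 164 in ULA 1 and 110 in ULA 2.

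The fibril-associated collagens, which sit on the surface of fibrils and have interrupted helices, gave no call among the 8 tested by edgeR, at an unadjusted p under 0.05 (0 genes) or by DESeq2 or limma-voom (0 genes each), and their median log2 fold change was 0.28. With the offset Col20a1 was called higher, and with the offset and the replicate number as a block Col9a1, Col9a3, Col16a1, Col20a1 and Col22a1 were. Col16a1 (ENSMUSG00000040690, chr4:130047840-130099283) and Col22a1 (ENSMUSG00000079022, chr15:71795795-72034227) were the highest collagens per length over the 4 libraries, and their values are given because of that rank. Col16a1 was measured at 21.5 CPM per kb in BUS 1, 24.1 in BUS 2, 18.2 in ULA 1 and 18.8 in ULA 2. Col22a1 was measured at 15.8 CPM per kb in BUS 1, 18.4 in BUS 2, 17.5 in ULA 1 and 18.5 in ULA 2. Neither followed the order of the type I chains, and Col22a1 overlapped between the groups.

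The log2 fold changes were -0.30 for Col16a1 and 0.08 for Col22a1, and neither passed. The share of the collagen CPM per kb held by these 2 genes was 15.6% in BUS 1, 23.6% in BUS 2, 28.4% in ULA 1 and 30.7% in ULA 2, while their summed level overlapped between the groups. The order of genes per length depends on the transcript used, and per kb of the longest transcript Col1a2 ranked 2 and Col22a1 ranked 3. Of the further members, Col9a3 had a log2 fold change of 0.06, Col14a1 0.24, Col19a1 0.32, Col9a1 0.40, Col20a1 0.41 and Col12a1 0.54. Col9a3 overlaps Tcfl5 by 234 bases on the opposite strand.

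The 2 collagens that rose were of low level. Col25a1 (ENSMUSG00000058897, chr3:130131501-130599877), a transmembrane collagen of neurons and muscle innervation, had 24 counts in BUS 1, 30 in BUS 2, 59 in ULA 1 and 48 in ULA 2. On the scaled level these were 1.26 and 1.48 CPM in BUS and 3.57 and 3.80 CPM in ULA. The replicates lay close together and the groups did not overlap. It rose by 1.42 ± 0.39 on the log2 scale (edgeR quasi-likelihood test, Benjamini-Hochberg adjusted p = 0.029).

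Col28a1 (ENSMUSG00000068794, chr6:7997808-8192617), a collagen described in the peripheral nervous system, had 95 counts in BUS 1, 122 in BUS 2, 186 in ULA 1 and 142 in ULA 2. The levels were 5.00 and 6.01 CPM in BUS and 11.3 CPM in each ULA library. It rose by 1.03 ± 0.31 on the log2 scale (edgeR quasi-likelihood test, Benjamini-Hochberg adjusted p = 0.039). Both rises passed with the offset, and neither passed without ULA 1, without ULA 2 or when counts were scaled by library size alone. Col25a1 was also lost with the offset for G and C content alone, and Col28a1 without BUS 1 and with no filter beyond 1 count.

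Among the other transmembrane collagens, Col17a1, of the hemidesmosomes that tie epithelial cells to basement membrane, fell by 1.07 on the log2 scale, a call kept in 7 of the 18 alternatives. Col13a1 had a log2 fold change of -1.47 at 10 to 68 counts and did not pass (edgeR quasi-likelihood test, Benjamini-Hochberg adjusted p = 0.058), and Col23a1 had -0.33. The network collagens Col8a1 and Col8a2, known from vessel walls and the cornea, had 0.10 and -0.53, and Col26a1, known from testis and ovary, had 0.12. Col9a2 had 2 to 6 counts per library. Col10a1, the collagen of hypertrophic cartilage, had 0 counts in both BUS libraries and 8 and 12 in the ULA libraries, at least 4.70-fold higher in ULA when 3 counts per library are taken as the floor, but its exons overlap Nt5dc1 on the opposite strand.

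Proteins that make and handle collagen were examined as further lists. Where none of a list or collagen group rose by edgeR, and without the offset, none rose by DESeq2, by limma-voom or at an unadjusted p under 0.05 in edgeR, apart from 2 collagen receptors at the unadjusted p and the spermatocyte marker given with its list. Of 25 enzymes and chaperones that modify, fold and trim procollagen, 15 fell and none rose, with a median log2 fold change of -1.10, and with the offset 7 fell and the median was -0.65. The log2 fold changes were -2.28 for Pcolce, an enhancer of procollagen trimming, -1.94 and -1.60 for Crtap and P3h1, partners in prolyl hydroxylation, and -1.88 for Bmp1, the C-propeptide protease. Serpinh1, the collagen chaperone, had -0.71 and did not pass. Of 7 cross-linking enzymes 4 fell, led by the lysyl oxidase family member Loxl2 and the transglutaminase Tgm2, at log2 fold changes of -2.77 and -2.23, with Loxl3 and Loxl1 at -1.44 and -1.06, and with the offset 2 fell.

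The list for breakdown and uptake holds degrading enzymes and their inhibitors. Of 11 tested, 7 fell and 1 rose, with a median log2 fold change of -1.5. The log2 fold changes were -4.63 for Ctsk, the collagen-degrading cathepsin, -1.67 for the inhibitor Timp2 and -1.80 for the membrane protease Mmp14, whereas the inhibitor Timp4 rose by 2.13. Ctsk had 64 counts in BUS 1, 80 in BUS 2, 0 in ULA 1 and 4 in ULA 2, so the size of its change is uncertain (SE 0.79). The 7 that fell were the degrading enzymes Ctsk, Mmp2, Mmp11 and Mmp14 and the inhibitors Timp1, Timp2 and Timp3, while Mmp9, Mmp19 and Mrc2 did not pass. Of 8 collagen receptors tested, 3 fell and none rose, and the median log2 fold change was -0.10. Those that fell were the discoidin domain receptors Ddr1 and Ddr2, at -2.16 and -1.14, and the integrin chain Itgb1, at -1.23.

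Matrix partners of both collagen groups were counted next. Of 22 fibril-associated matrix proteins tested, 8 fell and 1 rose, with a median of -0.76, and with the offset 4 fell and 2 rose. The log2 fold changes were -1.70 for Eln, elastin, -1.69 for Sparc, a collagen-binding protein, and -1.23 for Bgn, the proteoglycan biglycan, and Fbn2, a fibrillin, rose by 1.02. Of 12 basement membrane partners 7 fell and none rose, with a median of -1.20. Those with the lowest p were the proteoglycans Hspg2 and Agrn, at log2 fold changes of -1.37 and -1.45, and the laminin chains Lamb2 and Lama5, at -2.02 and -1.19. With the offset 1 of these 12 passed. Of 18 genes for TGF-beta ligands, receptors and targets, a pathway known to induce collagen, 9 fell and none rose, with a median of -1.13, but 4 fell with the offset and 4 by limma-voom. The latent TGF-beta binding proteins Ltbp3 and Ltbp4 had log2 fold changes of -1.71 and -1.92, the ligand Tgfb3 had -1.49 and the inhibitory Smad7 had -2.0.

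Markers of the cells that could hold collagen transcripts are given beside the collagens. The 14 interstitial fibroblast markers summed to 534 CPM in BUS 1, 292 in BUS 2, 206 in ULA 1 and 148 in ULA 2. Of these 8 fell, among them Clec3b, Pdgfra and Cd34, at log2 fold changes of -1.58, -1.67 and -1.18. The other 6 did not pass, among them Pi16, Mfap5 and Thy1, at -0.12, -0.01 and 0.82. The 8 that fell include Wt1, which Sertoli cells also express. Wt1 was at 137 CPM in BUS 1, 74.5 in BUS 2, 51.9 in ULA 1 and 42.9 in ULA 2. The fibroblast sum and count are therefore not of fibroblasts alone. The 12 peritubular myoid markers summed to 1011 CPM in BUS 1, 611 in BUS 2, 531 in ULA 1 and 548 in ULA 2, and 7 fell while 1 rose. Among them the contractile genes Tpm2, Smtn and Acta2 had log2 fold changes of -2.03, -1.32 and -1.53, and Actg2 rose by 1.13. Actg2 was at 94.5 CPM in BUS 1, 116 in BUS 2, 179 in ULA 1 and 280 in ULA 2. It was the largest part of the myoid sum in both ULA libraries, so that sum depends on it. The 14 endothelial markers summed to 247 CPM in BUS 1, 161 in BUS 2, 116 in ULA 1 and 108 in ULA 2, and 5 fell, among them Eng, Cldn5, Tie1 and Kdr, at log2 fold changes of -1.43, -1.36, -1.5 and -1.58. With the offset 5 fibroblast, 4 myoid and 0 endothelial markers fell, and by limma-voom 7, 5 and 3. Their part in the collagen result was not tested.

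Most markers of Sertoli cells and all those of Leydig cells fell. The 15 Sertoli markers summed to 7543 CPM in BUS 1, 3849 in BUS 2, 2391 in ULA 1 and 1489 in ULA 2, and 13 fell, led by Inha, Amh, Gata4 and Amhr2, at log2 fold changes of -2.11, -2.37, -1.84 and -1.61. All 9 Leydig markers fell, with a median log2 fold change of -2.43, led by Star, Cyp11a1, Cyp17a1 and Insl3, at -2.43, -3.57, -2.89 and -3.94. None of 12 macrophage markers passed and their sums overlapped between the groups. The median log2 fold change was -1.30, and 11 of the 12 were below 0. The most abundant, Aif1 and Mrc1, had log2 fold changes of 0.42 and -0.60. Aif1, the only member above 0, was at 114 CPM in BUS 1, 140 in BUS 2, 154 in ULA 1 and 185 in ULA 2. The macrophage sums thus depend on Aif1. Of the 12, 5 were lower at an unadjusted p under 0.05 in edgeR, 2 by DESeq2 and 0 by limma-voom. Of 14 spermatid markers 10 rose, led by Tnp1, Tnp2, Smcp and Prm2, at log2 fold changes of 2.00, 1.89, 1.69 and 1.60, and their sum was 3648 and 5057 CPM in BUS and 9571 and 14294 CPM in ULA. None of 11 spermatocyte markers passed, with a median of 0.45 and with Ldhc and Piwil1, the most abundant, at 0.60 and 0.45, while 1 was higher at an unadjusted p under 0.05 in edgeR, 1 by DESeq2 and 0 by limma-voom. The part of these markers in the collagen result was not tested.

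**Figure D4:**
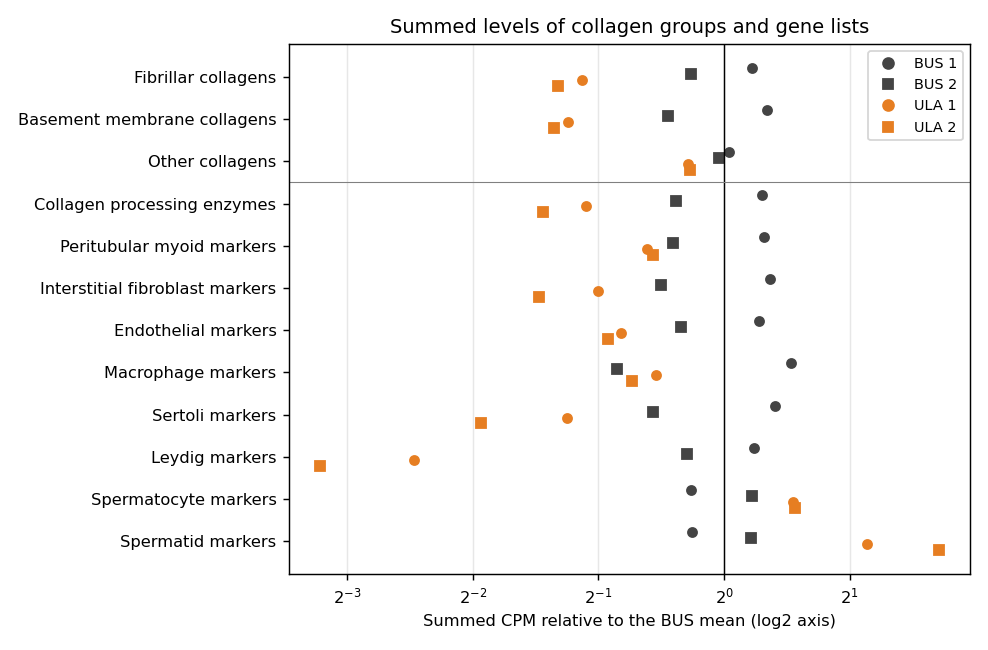
Summed CPM of the 3 collagen groups (above the line) and of gene lists (below it) in each library, divided by the mean of the 2 BUS libraries, on a log2 axis. The order from the right is BUS 1, BUS 2, ULA 1 and ULA 2 for fibrillar and basement membrane collagens and procollagen enzymes. Fibroblast, endothelial, Sertoli and Leydig markers have the same order, and spermatid markers the reverse.

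The order of libraries within the groups was also shared. Each of the 16 collagens that fell was higher in BUS 1 than in BUS 2, and 13 of them were higher in ULA 1 than in ULA 2. Of the 24 collagens that did not pass, 11 were higher in BUS 1 than in BUS 2 and 10 in ULA 1 than in ULA 2. Over all genes tested, 52.6% were higher in BUS 1 than in BUS 2 and 51.1% in ULA 1 than in ULA 2. The 2 collagens that rose were higher in BUS 2 and in ULA 2. Most collagens that fell thus also varied between libraries of 1 group, in the same order as the fibroblast, Sertoli and Leydig sums. The sums of other lists, among them the endothelial, TGF-beta and epididymis lists, had that order too. Which of these the collagens follow was not tested.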

How the data were processed

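RNA of mouse testis was measured in 2 BUS and 2 ULA libraries. The values the authors deposited are whole-number counts for each Ensembl gene, not normalized. The paper names Fastp, STAR, GRCm38 and FeatureCounts, and the submitters' processing notes name RSEM 1.3.1; which of these made the counts, the strand setting and the rule for reads with several positions are not given in the sources used here. The ULA columns carry a letter A that no source explains.

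Symbols, coordinates, exon lengths and G and C content came from GENCODE M21 (GRCm38), which named 52081 of the 57010 identifiers. Genes were kept by filterByExpr (at least 10 counts, and 15 in total), scaled with TMM factors and tested for ULA against BUS with the quasi-likelihood test of edgeR 4.0.16 in R 4.3.3, with Benjamini-Hochberg adjustment over 23023 genes. The biological coefficient of variation was 0.242. Standard errors are the size of the log2 fold change divided by the square root of the test's F statistic. The spread in that statistic is estimated partly from all genes, not from 2 libraries per group alone. Levels between genes are CPM per kb of the exon union. The steps were tested on simulated data. The floor of 3 counts covers counting error only.

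The alternatives were other scalings, DESeq2 1.42.0, limma-voom (limma 3.58.1), other filters, protein-coding genes alone, leaving out 2 abundant genes or each library, the replicate number as a block, an unadjusted p with a fold of 1.5, and an offset for G and C content and length (mgcv 1.9.3, 8 basis functions). Offsets for either property alone were chosen after seeing the data.

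The members, the gene lists and the tests were chosen with earlier results of these data known. Every tested collagen is named. Values per library are given for members that passed and were among the 6 most abundant of their group, and for those that rose; in other lists up to 4 members that passed, by p, are named, or the 2 most abundant. The rule also gave 1 gene that is not reported here. Values of Col2a1, Col4a6, Col6a5, Col6a6, Col7a1, Col16a1, Col22a1 and the genes Serpinh1 and Cnmd, and the names of further breakdown genes, were added after the values were seen. Library values of Wt1, Aif1 and Ctsk were also added then.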

Additional observations from a re-analysis of the deposited data

How the results depend on the processing

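The 16 collagens that fell became 7 with the offset for G and C content and length, and leaving out 1 library gave 6 to 23, the lowest without ULA 2 and the highest without BUS 2. The 2 that rose became 0 when counts were scaled by library size alone, 5 with the offset and 10 with the offset and a replicate block. Over all genes, 2706 of 23023 rose in the main fit. Under those 3 settings 1877 of 23023, 1885 of 22444 and 4946 of 22444 rose. Leaving out 1 library lowered, kept or raised the number of collagens that rose. Over all genes, 3512 of 23023 fell in the main fit and 2625 of 22444 with the offset. When 1 library was left out, the number of all genes that fell was also lowest without ULA 2 and highest without BUS 2. The number of falling collagens in those fits therefore followed that of all genes, and its range is not particular to collagens. The median log2 fold change of -0.65 became -0.35 with upper-quartile factors, -0.86 with library size alone, -0.45 with protein-coding genes alone, 0.018 with the offset, 0.016 with the offset and block, -0.21 with the offset for G and C content alone and -0.48 with that for length alone, and leaving out 1 library gave -0.85 to -0.40. Upper-quartile factors moved the median of all genes to 0.31 and library size alone to -0.20, and relative to those shifts the collagen median was -0.66 under both. The cause of these changes was not tested.

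The log2 fold change of Col7a1 turned from -0.92 to 0.069 with the offset and to 0.071 with the offset and block. With both, the value of Col2a1 went from -0.03 to 1.06 and that of Col16a1 from -0.30 to 0.76. The replicate block alone gave 22 lower and 2 higher, with a median of -0.63, where 5901 of 23023 genes were lower and 5151 higher. Same-numbered libraries deviated together with a correlation of 0.33, but with 2 pairs and no label tying the numbers to animals they were not treated as pairs. For the 2 counts and the median over all collagens, 40 values under alternatives stayed within the limits used and 16 moved, some of them without 1 library. Among values of single collagens and of the 3 groups, 758 stayed, 32 newly passed, 53 no longer passed and 59 moved (levels per kb of the longest transcript, fold changes that did not pass, and counts per group). With 2 libraries per group, collagens such as Col8a1 at 20 to 35 counts and Col13a1 at 10 to 68 have wide errors, and a p that missed the threshold there does not show equal levels.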
